A study of Mus musculus with 6 samples.

Results

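Translation initiation and elongation factors, the proteins that place ribosomes on mRNAs and move them along, were followed in 6 RNA sequencing libraries of mouse lung group 2 innate lymphoid cells (ILC2). The members are all gene symbols in the deposited tables that begin with Eif1 to Eif6 or with Eef1 or Eef2. The eIF2 alpha kinases Eif2ak1 to Eif2ak4 and the synthetase partner Eef1e1 were left out of the set, as any name ending in -ps would be. This gave 59 members among the 23183 genes of each table. ILC2 are lymphocytes without antigen receptors that make type 2 cytokines. All cells were primary, of wild-type genotype, and were cultured for 24 h with IL-2, IL-7 and IL-33 at 10 ng/ml. They received either an IgG2b isotype control antibody (3 libraries) or DTA-1, an agonist antibody to the TNF receptor family member GITR (3 libraries). Antibody dose, strain, sex, age and number of animals were not found in the labels. Nothing there says that replicates came from separate animals or cultures, so p-values measure only the spread between these libraries, which may be technical.

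Translation of most mRNAs starts when eIF4F binds the cap and recruits a small ribosomal subunit that already carries eIF1, eIF1A, eIF3, eIF5 and the eIF2 complex with its initiator tRNA. After the start codon is found, eIF2 leaves with GDP bound and is recharged by eIF2B, and eIF5B joins the large subunit. eEF1A then delivers each aminoacyl-tRNA, eEF1B recharges eEF1A, eIF5A aids peptide bond formation, and eEF2 moves the ribosome by one codon. The pathway is controlled largely after transcription, through phosphorylation of eIF2, of the eIF4E-binding proteins by mTORC1 and of eEF2 by its kinase, which transcript levels do not report.

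Values are FPKM, fragments scaled to transcript length and library size. The unit was inferred from the values, and because it is per length, levels can be compared between genes. The steps between low values corresponded to 19000000 to 20600000 fragments per library, with totals of 574195 to 606724 FPKM. At that depth the expected counting error of a tested member ran from 0.253% to 11.7% in its lowest library, with a median of 1.47%. The median coefficient of variation between libraries was 10.8% with the isotype antibody and 5.63% with DTA-1, so spread between libraries rather than depth limited most comparisons. All 11 ILC2 markers on a fixed list were expressed in every library, among them Gata3 and Il1rl1. Of these, 2 were higher with DTA-1 (Il5 and Il13) and 2 lower (Klrg1 and Il1rl1) at limma unadjusted p under 0.05. The shares of all tested genes were 6.22% and 7.73%. Klrg1 measured 79.8 to 115 FPKM in the isotype and 10.5 to 48.1 FPKM in the DTA-1 libraries. Il13 measured 1980 to 2839 and 4593 to 5883 FPKM. Of 29 markers of 8 other cell types in the files, 5 reached the test filter: Pecam1, Kit, Cd3g, Cd79b and Epcam. Pecam1 measured 31.5 to 43.8 FPKM in the isotype and 19.9 to 38.7 FPKM in the DTA-1 libraries, while the second endothelial marker Cdh5 lay at or near 0. Kit measured 7.23 to 16.6 and 5.52 to 11.9 FPKM, while the mast cell genes Mcpt4, Cpa3 and Fcer1a lay at or near 0, as did Lyz2, Csf1r and Sftpc of other lists. Cd79b measured 3.33 to 7.10 and 2.93 to 6.46 FPKM. Summed levels of 4 epithelial markers, nearly all Epcam, were 2.84 to 4.43 FPKM in the isotype libraries and 1.12 to 2.03 FPKM in the DTA-1 libraries. Those of 4 T cell markers, mostly Cd3g, were 10.1 to 11.02 and 7.92 to 9.76 FPKM. The 12 genes of a proliferation list were all lower with DTA-1 (limma unadjusted p under 0.05, against 7.73% of all tested genes), with summed levels of 930 to 1417 FPKM in the isotype libraries and 632 to 679 FPKM in the DTA-1 libraries. The part of these marker differences in the values that follow was not tested, and in bulk RNA fewer cells of a type cannot be told apart from less RNA per cell.

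The start regions of 12 of these genes hold a short sequence that the choice of members did not use. The E-box CACGTG, a palindrome that reads alike on both strands and is bound by Myc, Usf and related factors, was searched in RefSeq windows on GRCm38.p6 that run from 250 bases before to 50 bases after each annotated start. Of the 59 members, 45 had a window, and 12 of these held the motif in at least 1 window (26.7%). Among the 8076 tested genes with a window the share was 12.4%, and among all 27025 genes with a window 8.09%. The sequences that follow show 1 E-box (capitals) with 10 bases on either side, 5′ to 3′ on the strand of the gene. They are given for some of the factors of elongation and of cap binding that are described in the results.
Eef2 (chr10:81176578-81176603, plus strand): ccggcgccgtCACGTGacgcacccaa
Eef2k (chr7:120842790-120842815, plus strand): cggggacggcCACGTGagcccgggcg
Eif4a1 (chr11:69672597-69672622, minus strand): atcgcctccgCACGTGtaaaggtgct
Eif4e (chr3:138527194-138527219, plus strand): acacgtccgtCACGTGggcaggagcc
Eif4g1 (chr16:20672663-20672688, plus strand): cagtgggtgtCACGTGatggggcgga
Eif5a (chr11:69921445-69921470, minus strand): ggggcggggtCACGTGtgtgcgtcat
Positions are counted from the annotated start of the window that holds the site, and a gene can have more than 1 such start. The first base of the printed motif lay at -43 in Eef2, -31 in Eef2k, -189 in Eif4a1, -64 in Eif4e, -54 in Eif4g1 and -74 in Eif5a. Further sites, not printed, lay at -228 in Eif4e, 16 in Eif4g1 and, counted from another annotated start, -178 in Eif5a. Eif5a2 held sites at -117 and -142, also not printed. A match describes letters, not a bound site. The 12 tested members with an E-box had a median log2 fold change of 0.048 with DTA-1, and the 30 tested members with a window but no E-box had 0.047. The 14 members without a window, among them Eif6 and Eif4e3, are in neither median. Myc itself, chosen for naming after its values were seen, measured 126, 105 and 129.9 FPKM with the isotype antibody and 175, 173 and 161 FPKM with DTA-1, without overlap between the groups (log2 fold change 0.50 ± 0.12, limma adjusted p = 0.140). The part of Myc in the members' values was not tested.

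Mean levels of the tested members ranged from 5.67 FPKM (Eif5a2) to 4685 FPKM (Eef1a1), and elongation factors stood highest. Eef1a1, the tRNA-delivering GTPase, was the most abundant, followed by Eef2, Eef1g and Eif5a, and these were the 4 members above 1000 FPKM. In all, 31 members had a mean of at least 100 FPKM, and 3 tested members lay under 10 FPKM: Eef2k, Eif4ebp3 and Eif5a2. Over all libraries the range of Eef1g overlapped that of Eif5a, at means of 1120.3 and 1098 FPKM. The range of Eif1 likewise overlapped that of Eif4a1, at 737 and 727 FPKM. The 59 members together made up 2.72% ± 0.0297 of the library total with the isotype antibody and 2.74% ± 0.0620 with DTA-1 (SD, n = 3 each). These shares differed by less than the spread between libraries (exact permutation test, 2-sided, p = 0.8, where 0.1 is the smallest value possible with 3 against 3).

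**Figure D1:**
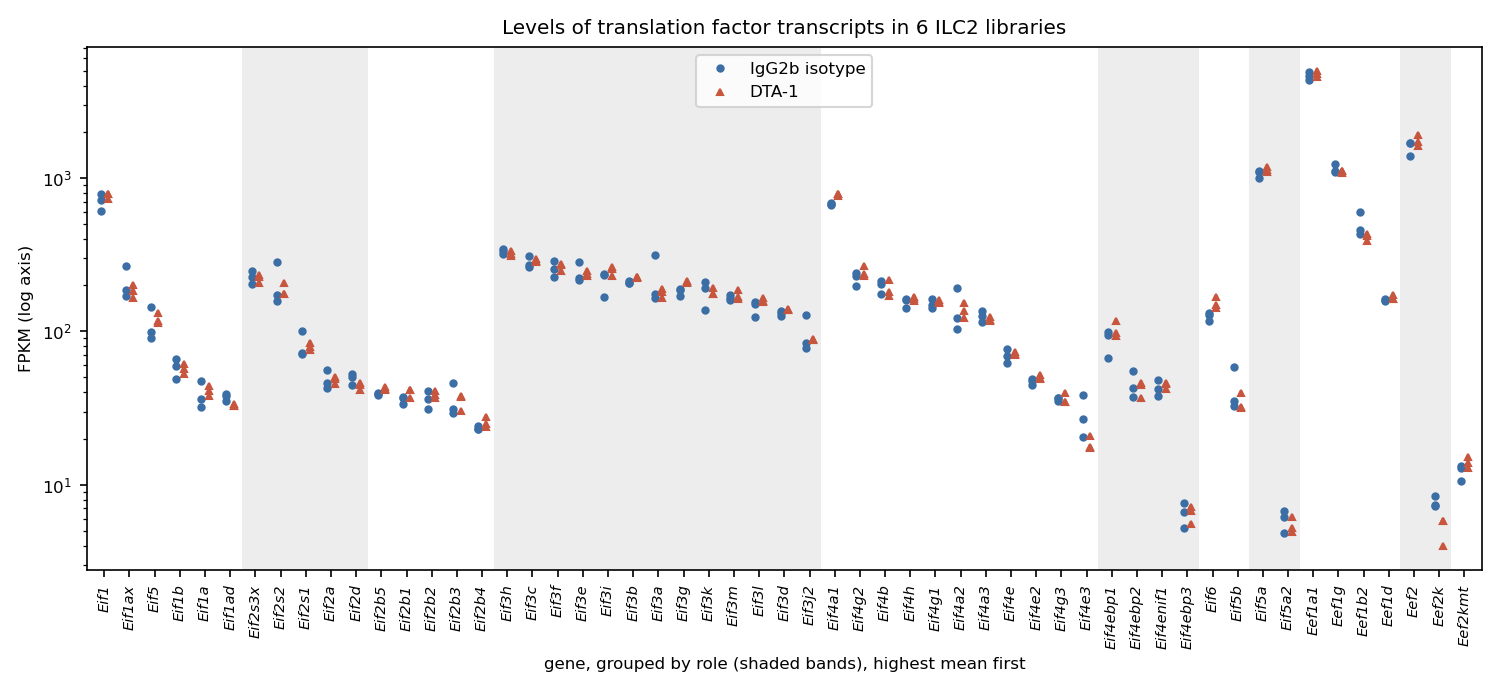
Level of each of the 55 tested translation factors in FPKM (log axis) in the 3 IgG2b isotype libraries (circles) and the 3 DTA-1 libraries (triangles), grouped by role in alternating bands. Eef1a1, Eef2, Eef1g and Eif5a lie above 1000 FPKM, and Eef2k, Eif4ebp3 and Eif5a2 lie under 10 FPKM.

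No translation factor passed the test between DTA-1 and the isotype antibody. Genes that reached 1 FPKM in 3 or more libraries were compared by limma on log2(FPKM + 1), and fold changes are on that scale with the SE of the fit. Of the 59 members 55 were tested, and 0 had an adjusted p under 0.05 (Benjamini-Hochberg over 10501 genes), against 0.0381% of all tested genes, or 4 genes. The smallest adjusted p of a member was 0.207, for Eef2k. At an unadjusted p under 0.05, 1 member was higher (Eif6, against 6.22% of all tested genes) and 2 were lower (Eef2k and Eif4e3, against 7.73%). The count of 1 became 3 when isotype replicate 2 was dropped, and 0 when isotype replicate 3 or any DTA-1 library was. The count of 2 became 1 when isotype replicate 2 or 3 or DTA-1 replicate 1 or 2 was dropped. The median log2 fold change of the members was 0.044, against 0.014 over all tested genes, and the median of their absolute values was 0.090 against 0.14. The genes compared here were not matched to the members for expression level. Of the 55, 35 lay above 0, against 52.6% of all tested genes. With libraries scaled to equal totals 29 lay above 0, against 46.8%.

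The 95% interval of the log2 fold change lay within 1.5-fold either way for 49 of the 55 tested members (89.1%), against 65.7% of all tested genes. These shares were not matched for expression level, and the median SE was 0.124 for the members and 0.148 for all tested genes. The 6 whose interval reached further were Eif4e3, Eef2k, Eif3a, Eif5b, Eif3i and Eif4ebp1. The groups did not overlap for 9 members, against 21.6% of all tested genes: Eif2b5, Eif3b, Eif3d, Eif3g, Eif3l, Eif4a1 and Eif6 were higher in every DTA-1 library (7 members, against 11.2% of all tested genes), and Eef2k and Eif1ad were lower (2 members, against 10.5%). Dropping isotype replicate 2 gave 19 higher members (19.2% of all tested genes) and 4 lower (15.9%). Dropping isotype replicate 3 gave 12 higher (17.8%) and 5 lower (16.9%). Dropping DTA-1 replicate 3 gave 13 higher (16.1%) and 4 lower (14%), and dropping DTA-1 replicate 1 gave 9 higher (14.9%) and 5 lower (15.1%). The remaining libraries left the counts close to those of all 6: 8 higher (16.7%) and 3 lower (14.7%) for isotype replicate 1, and 7 higher (13%) and 2 lower (12%) for DTA-1 replicate 2. With the library numbers of the descriptions as a block, 26 of the 55 intervals lay within 1.5-fold. That block leaves fewer degrees of freedom. Replicate 1 of each group carries a number absent from the other group, so the estimate rests on replicates 2 and 3. The share over all tested genes is not given for this fit.

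**Figure D2:**
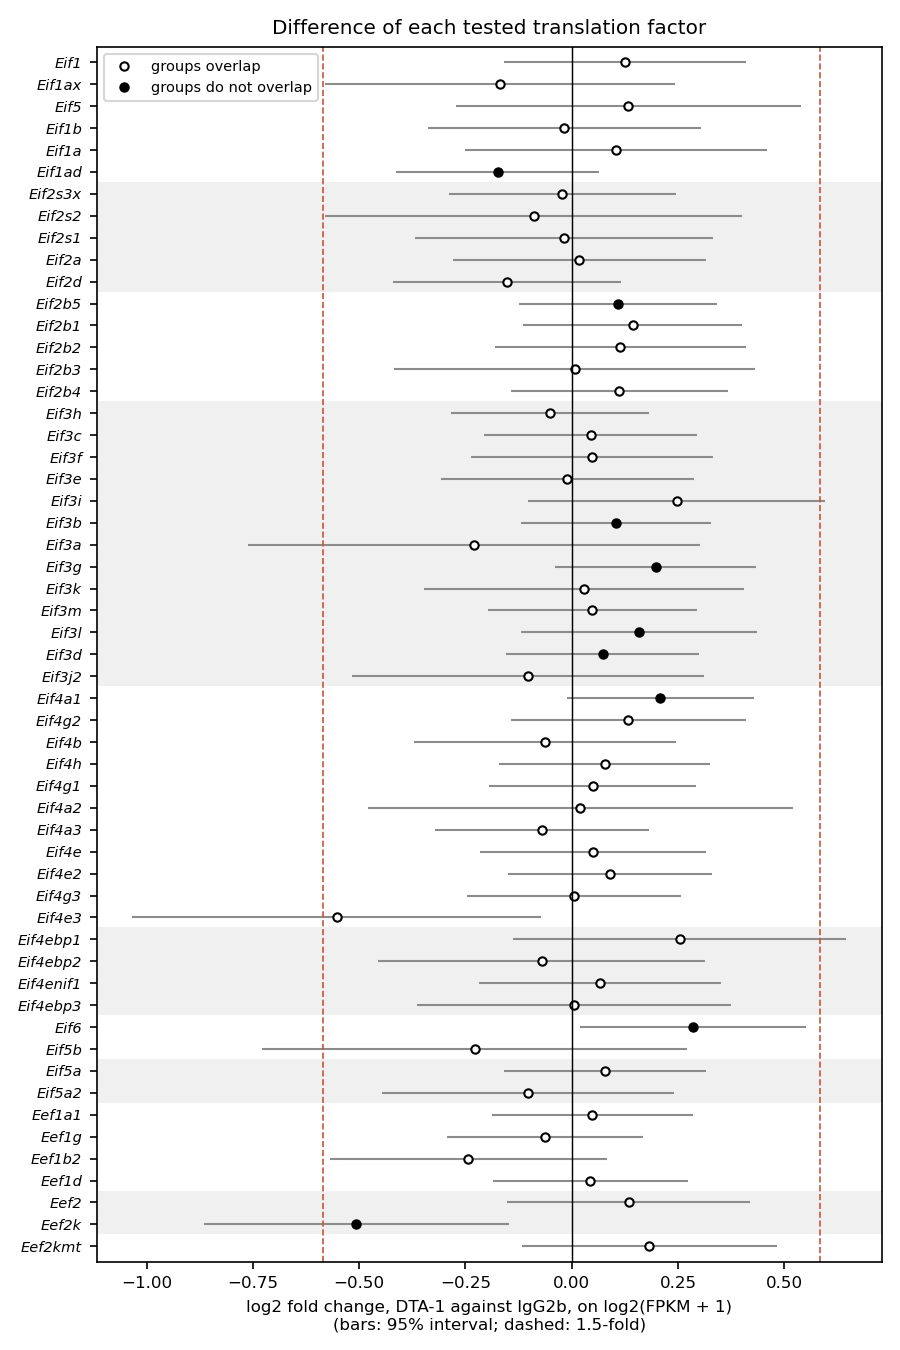
Log2 fold change of each tested translation factor, DTA-1 against IgG2b, on the log2(FPKM + 1) scale with its 95% interval from limma (horizontal bars), grouped by role as in the plot of levels; dashed lines mark 1.5-fold and filled points mark members whose groups do not overlap. Points lie between -0.55 (Eif4e3) and 0.29 (Eif6), and 49 of 55 intervals stay between the dashed lines.

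Of the 6 genes grouped under start codon selection, 3 lay above 0 and 3 below on the log2 scale. Eif1, which keeps the scanning ribosome open until the start codon is met, was the most abundant, at 611, 718 and 791 FPKM with the isotype antibody and 732, 785 and 783 FPKM with DTA-1. Isotype replicate 1 was the lowest of the 6 libraries and the groups overlapped (log2 fold change 0.12 ± 0.12). Eif5, the GTPase activator of eIF2, measured 91.1, 144 and 99.4 FPKM with the isotype antibody and 113, 116 and 131 FPKM with DTA-1, with isotype replicate 2 above every other library; without that library its log2 fold change was 0.33 (limma unadjusted p = 0.0154). Eif1ad was placed in this group only by its name, which stands for an eIF1A-like domain. It measured 38.1, 38.9 and 35.2 FPKM with the isotype antibody and 32.8, 32.5 and 33.7 FPKM with DTA-1. Its DTA-1 libraries all lay below the isotype libraries, and the log2 fold change was -0.17 ± 0.10 (adjusted p = 0.518 by limma).

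The 3 tested subunit genes of eIF2, which carries the initiator tRNA, had log2 fold changes of -0.089 (Eif2s2) to -0.018 (Eif2s1). Eif2a and Eif2d, factors outside the complex that can also deliver tRNA, had 0.018 and -0.15, and all 5 genes overlapped between the groups. Eif2s1, the alpha subunit gene whose product is the target of the stress kinases, measured 71.2, 101 and 72.3 FPKM with the isotype antibody and 78.7, 75.9 and 83.9 FPKM with DTA-1. Isotype replicate 2 was the highest library and the others lay close together (log2 fold change -0.018 ± 0.15, and 0.14 without that library). Eif2s3x, the X-linked gamma subunit gene and the most abundant of the complex, measured 227, 247 and 204 FPKM with the isotype antibody and 208, 226 and 233 FPKM with DTA-1. The groups overlapped (log2 fold change -0.022 ± 0.12). Its Y-linked copy Eif2s3y was listed at 0 in all 6 libraries, as were the Y-linked genes Ddx3y, Kdm5d and Uty, while Xist, transcribed from the inactive X chromosome, measured 114 to 151 FPKM. Transcripts of the gamma subunit were thus listed from the X-linked gene alone.

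The 5 genes of eIF2B, the exchange factor that recharges eIF2, were expressed at 23.0 to 46.1 FPKM, below all 3 subunits of their substrate in the mean. All 5 log2 fold changes lay above 0 (against 52.6% of all tested genes), from 0.0075 to 0.14, with a median of 0.11. None had a limma unadjusted p under 0.05. Eif2b5, the catalytic epsilon subunit gene and the most abundant of the 5, measured 39.9, 38.8 and 38.3 FPKM with the isotype antibody and 41.1, 41.9 and 43.3 FPKM with DTA-1. The groups did not overlap, although they were separated by little (log2 fold change 0.11 ± 0.10, limma adjusted p = 0.709).

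The eIF3 complex, the scaffold on the small ribosomal subunit, had 13 tested genes with mean levels between 92.2 FPKM (Eif3j2) and 326 FPKM (Eif3h). Of these, 9 lay above 0 (against 52.6% of all tested genes) and 4 below, with a median log2 fold change of 0.048. The groups did not overlap for 4, all higher with DTA-1 (Eif3b, Eif3d, Eif3g and Eif3l, against 11.2% of all tested genes). Eif3h measured 344, 320.3 and 332 FPKM with the isotype antibody and 335, 308 and 319 FPKM with DTA-1, with overlapping groups and a log2 fold change of -0.051 ± 0.10. Eif3g, which contacts the scanning complex, measured 171, 189.9 and 187 FPKM with the isotype antibody and 206, 213 and 208 FPKM with DTA-1. Every DTA-1 library lay above every isotype library (log2 fold change 0.20 ± 0.10, limma unadjusted p = 0.0896, adjusted p = 0.451). Eif3a, the largest subunit, measured 175, 313 and 164 FPKM with the isotype antibody and 179, 164 and 189 FPKM with DTA-1. Isotype replicate 2 alone was high, and the other libraries ranged from 164 to 189 FPKM.

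Eif3j1 and Eif3j2, near-identical copies of 1 subunit gene, could not be told apart reliably. Of the 50-base stretches of the longest coding Eif3j2 transcript in GENCODE M21, 90.8% also occur in that of Eif3j1, and 39.4% of those of Eif3j1 occur in Eif3j2. Eif3j1 was listed at 0.0616 to 0.0630 FPKM in 5 libraries and at 12.01 FPKM in DTA-1 replicate 3, and it was not tested. The summed level of both copies was 84.2, 128 and 78.3 FPKM with the isotype antibody and 88.5, 87.6 and 99.4 FPKM with DTA-1, so the groups overlapped. With that value included, DTA-1 replicate 3 lay within the range of the isotype sums.

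Of the cap-binding complex eIF4F and its relatives, 11 of 12 genes were tested, and the helicase gene Eif4a1 was the most abundant. Eif4a1 measured 685, 673 and 666 FPKM with the isotype antibody and 765, 784 and 789.7 FPKM with DTA-1. The groups did not overlap and each varied little (means 674 ± 9.56 and 779.6 ± 13.2 FPKM, SD, n = 3 each), with a log2 fold change of 0.21 ± 0.10 (limma unadjusted p = 0.0608, adjusted p = 0.388). With quantile normalization the log2 fold change was 0.11 (limma unadjusted p = 0.355) and the groups overlapped. Eif4a2, its less abundant paralog, measured 104, 193 and 122 FPKM with the isotype antibody and 136, 123 and 153 FPKM with DTA-1, with isotype replicate 2 the highest library and isotype replicate 1 the lowest (log2 fold change 0.020 ± 0.22). The value near 0 rested on these libraries: it was 0.28 without isotype replicate 2 (limma unadjusted p = 0.0640) and -0.17 without isotype replicate 1.

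Eif4e, which binds the cap itself, was far less abundant than Eif4a1, at 68.7, 76.9 and 62.2 FPKM with the isotype antibody and 71.4, 70.1 and 73.1 FPKM with DTA-1. The DTA-1 libraries lay within the range of the isotype libraries (log2 fold change 0.050 ± 0.12). Eif4g1, the scaffold that joins cap, helicase and ribosome, measured 163, 149 and 142 FPKM with the isotype antibody and 161, 156 and 153 FPKM with DTA-1, also with overlap (log2 fold change 0.049 ± 0.11). Eif4b, an activator of the helicase, measured 212, 202 and 175 FPKM with the isotype antibody and 216, 169 and 180.1 FPKM with DTA-1 (log2 fold change -0.063 ± 0.13), where DTA-1 replicate 1 was the highest and DTA-1 replicate 2 the lowest of all libraries. For these core genes the differences were smaller than the spread of the libraries.

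Eif4e3, a divergent cap-binding homolog of eIF4E, had the lowest fold change of all members. It measured 20.5, 38.3 and 26.7 FPKM with the isotype antibody and 17.7, 17.3 and 20.7 FPKM with DTA-1. The highest DTA-1 library just exceeded the lowest isotype library, so the groups overlapped. The log2 fold change was -0.55 ± 0.21 (limma unadjusted p = 0.0292, adjusted p = 0.289), and it was -0.32 without isotype replicate 2 (unadjusted p = 0.0620). The germline paralog Eif4e1b was listed at 0 in 5 libraries and at 0.0290 FPKM in DTA-1 replicate 3, and was not tested.

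The eIF4E-binding proteins, which compete with eIF4G for eIF4E until mTORC1 phosphorylates them, were encoded by 3 tested genes. Eif4enif1, which codes for another eIF4E-binding protein that carries eIF4E into the nucleus, was grouped with them at 37.7, 48.0 and 41.9 FPKM with the isotype antibody and 42.0, 46.0 and 45.2 FPKM with DTA-1 (log2 fold change 0.066 ± 0.12), and the groups overlapped. Eif4ebp1 was the most abundant, at 94.5, 66.6 and 98.7 FPKM with the isotype antibody and 116, 97.9 and 93.4 FPKM with DTA-1. Isotype replicate 2 was far below the other libraries, which overlapped between the groups (log2 fold change 0.25 ± 0.17, 95% interval -0.14 to 0.65). Without that library its log2 fold change was 0.078, and with library quality weights 0.060. Eif4ebp2 measured 55.3, 37.1 and 42.9 FPKM with the isotype antibody and 44.8, 46.2 and 36.6 FPKM with DTA-1 (log2 fold change -0.070 ± 0.17). Eif4ebp3 measured 6.60, 5.21 and 7.63 FPKM with the isotype antibody and 6.75, 5.52 and 7.14 FPKM with DTA-1 (log2 fold change 0.0053 ± 0.16), or -0.24 with library quality weights. In every library Eif4ebp1 exceeded Eif4ebp2 and Eif4ebp3.

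Eif6, which holds the large ribosomal subunit apart from the small one and takes part in its maturation, had the highest fold change of all members. It measured 131, 116 and 128 FPKM with the isotype antibody and 168, 149 and 142 FPKM with DTA-1. All DTA-1 libraries lay above all isotype libraries, and DTA-1 replicate 1 was the highest. The means were 125 ± 8.17 and 153 ± 13.7 FPKM, SD, n = 3 each, with a log2 fold change of 0.29 ± 0.12 (limma unadjusted p = 0.0384, adjusted p = 0.326). The unadjusted p exceeded 0.05 when any single library other than isotype replicate 1 was dropped (0.0532 to 0.142), with either block (0.0730 and 0.338) and with equal totals (0.0600). Eif5b, the GTPase of subunit joining, measured 32.4, 58.1 and 35.1 FPKM with the isotype antibody and 31.8, 32.0 and 39.9 FPKM with DTA-1, with isotype replicate 2 above all others (log2 fold change -0.23 ± 0.22).

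Eif5a, whose product carries the modified lysine hypusine and relieves stalled ribosomes, was among the most abundant members at 1116, 996 and 1094 FPKM with the isotype antibody and 1173, 1121 and 1089.8 FPKM with DTA-1. The groups overlapped (log2 fold change 0.078 ± 0.10). Eif5a2, its far less abundant paralog, measured 6.19, 6.74 and 4.83 FPKM with the isotype antibody and 4.89, 5.25 and 6.12 FPKM with DTA-1 (log2 fold change -0.10 ± 0.15). Both genes of hypusine synthesis were tested, and neither Dhps nor Dohh had an unadjusted p under 0.05 (log2 fold changes 0.15 each).

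The eEF1 complex had 4 tested genes with log2 fold changes between -0.24 and 0.049, and no member without overlap. Eef1a1 measured 4886, 4599 and 4336 FPKM with the isotype antibody and 4989.9, 4562 and 4737 FPKM with DTA-1. The isotype and DTA-1 libraries interleaved (means 4607 ± 275 and 4763 ± 215 FPKM, SD, n = 3 each, log2 fold change 0.049 ± 0.10, 95% interval -0.19 to 0.28), and with quantile normalization the log2 fold change was -0.076. Eef1a2, the form of muscle and neurons, was listed at 0 in all 6 libraries. The exchange factor gene Eef1b2 measured 455, 595 and 432 FPKM with the isotype antibody and 433, 389 and 418 FPKM with DTA-1 (log2 fold change -0.24 ± 0.14), with isotype replicate 2 the highest.

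Eef2 and its inhibitory kinase had log2 fold changes of opposite sign, and neither passed the test. Eef2, the translocase, measured 1691, 1395 and 1692 FPKM with the isotype antibody and 1908, 1718 and 1609 FPKM with DTA-1, with overlap between the groups (log2 fold change 0.13 ± 0.12). Eef2k, the calcium-dependent kinase that phosphorylates eEF2 and slows elongation, measured 8.44, 7.40 and 7.30 FPKM with the isotype antibody and 3.98, 5.82 and 5.76 FPKM with DTA-1. Every DTA-1 library lay below every isotype library, and DTA-1 replicate 1 was the lowest. The means were 7.71 ± 0.627 and 5.19 ± 1.05 FPKM, SD, n = 3 each, with a log2 fold change of -0.51 ± 0.16 (limma unadjusted p = 0.0114, adjusted p = 0.207). Without DTA-1 replicate 1 the log2 fold change was -0.36 (limma unadjusted p = 0.0317). With the library number block, to which replicate 1 of either group adds nothing, the log2 fold change was -0.30 (limma unadjusted p = 0.181). The expected counting error of Eef2k, at 4.41% in its lowest library, was smaller than its coefficient of variation of 8.13% and 20.2% in the isotype and DTA-1 groups. Eef2kmt, the methyltransferase of eEF2, measured 12.8, 10.5 and 13.2 FPKM with the isotype antibody and 12.9, 15.05 and 13.9 FPKM with DTA-1 (log2 fold change 0.18 ± 0.13).

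Paralog shares, which tell how the transcript level of a pair divided between its genes, overlapped or were equal between the groups for every fixed pair except Eif1a with Eif1ax. Of 10 fixed paralog pairs, 2 were made up entirely by 1 gene in all libraries (Eif2s3x and Eef1a1), and Eif5a supplied 99.4% ± 0.116 and 99.5% ± 0.0726 of its pair with the isotype antibody and DTA-1 (SD, n = 3 each). Eif4a1 supplied 83.0% ± 4.72 and 85.0% ± 1.35 of its pair, Eif4e 59.4% ± 2.35 and 58.8% ± 1.12 of its sum with Eif4e2, and Eif4g1 80.7% ± 0.917 and 81.1% ± 0.889 of its sum with Eif4g3. Eif4ebp1 supplied 65.7% ± 3.54 and 70.6% ± 2.35 of its sum with Eif4ebp2. None of these separated the groups.

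Eif1a and Eif1ax, autosomal and X-linked genes of eIF1A, were the single pair whose shares did not overlap. Eif1a was the minor copy, at 16.0%, 14.9% and 16.3% of the pair with the isotype antibody and 18.7%, 18.4% and 18.2% with DTA-1. The difference of 2.70 percentage points reached the smallest p possible (exact permutation test, 2-sided, p = 0.1; adjusted p = 0.533 over 8 pairs). Eif1a itself measured 32.3, 47.1 and 36.1 FPKM with the isotype antibody and 37.8, 41.0 and 44.3 FPKM with DTA-1 and Eif1ax 170.0, 268 and 185 FPKM with the isotype antibody and 164, 182 and 199 FPKM with DTA-1, and each gene overlapped between the groups when taken alone. The longest coding transcripts of the pair share no stretch of 50 bases. The count of 1 pair without overlap became 4 when isotype replicate 3 was dropped, and 2 when DTA-1 replicate 2 or 3 was.

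**Figure D3:**
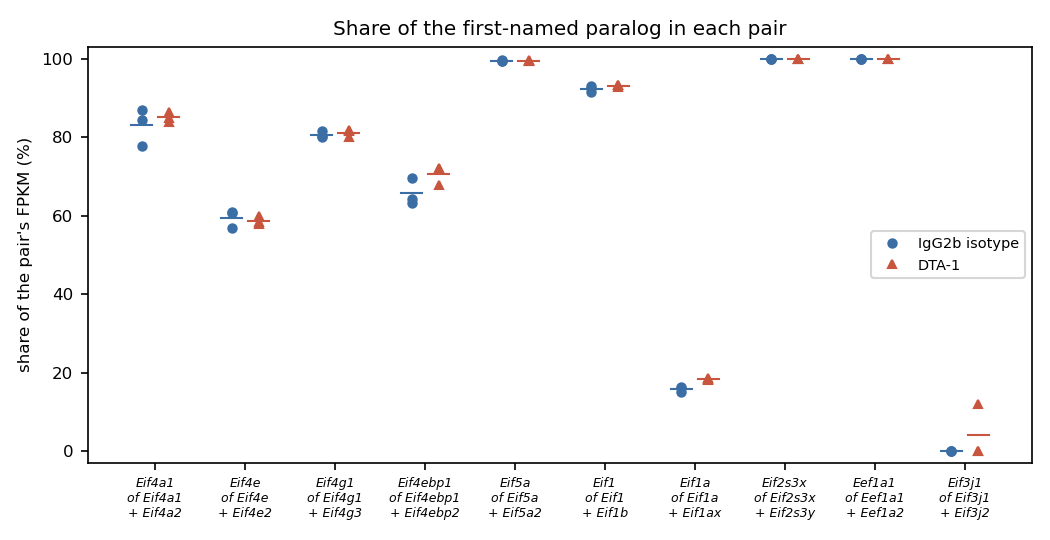
Share of the first-named gene in the summed FPKM of each paralog pair (percent), for the 3 IgG2b isotype libraries (circles) and the 3 DTA-1 libraries (triangles), with group means as short lines. The groups separate for Eif1a alone, and DTA-1 replicate 3 stands apart for Eif3j1 at 12.1%.

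Isotype replicate 2 stood apart from the other libraries for many members. It was the library farthest from the average library for 29 of 55 members (for 37.2% of all tested genes). It was highest for Eif4e3, Eif3a, Eif5b, Eif2s2 and Eif4a2, by 0.73, 0.70, 0.63, 0.56 and 0.50 above that average on the log2 scale. It was lowest for Eif4ebp1, Eif3i and Eif3k, by -0.48, -0.44 and -0.38. The first 5 genes have transcripts of 40.2% to 45.05% GC and the last 3 of 48.2% to 53.9%. Across the 55 members, the deviation of this library was lower at higher transcript GC content (Spearman's rho -0.71, across genes that share the library and are not independent). Across 10112 tested genes with a transcript rho was -0.58, so the relation was not limited to the translation factors. The other libraries had rho between -0.30 and 0.56 across the members. Fits without this library and without the trend are given next.

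**Figure D4:**
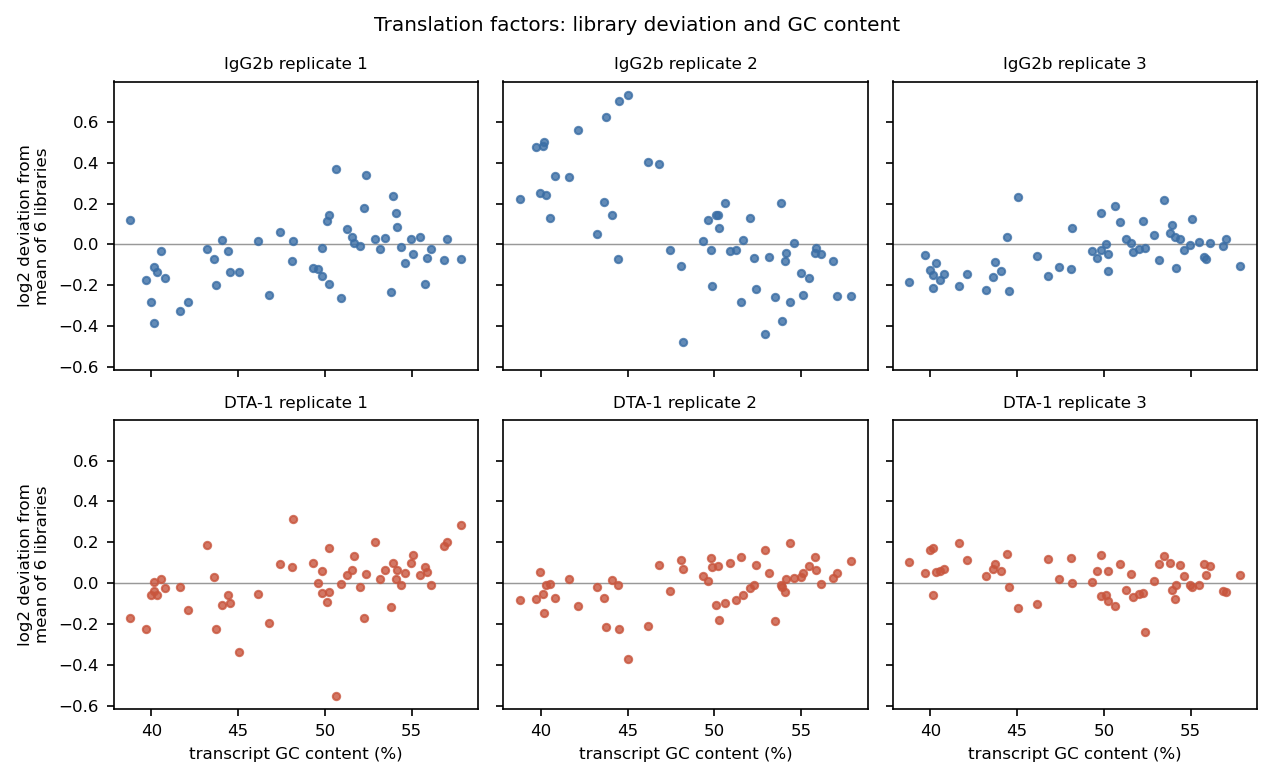
Deviation of each library from the average of the 6 on the log2(FPKM + 1) scale against the GC content of the longest coding transcript (percent), 1 point per tested translation factor (55 per panel). In IgG2b replicate 2, 15 of 16 members under 45% GC lie above 0, and 13 of 39 members of higher GC do.

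The spread between the isotype libraries was larger than between the DTA-1 libraries for 44 of 55 members (80.0%, against 73.3% of all tested genes). Without isotype replicate 2 it was larger for 25 of 55 (45.5%, against 52.1%). That count rests on fewer isotype than DTA-1 libraries, so it cannot be compared directly with the count over all libraries. The median SD of a member was 0.16 in the isotype group and 0.080 in the DTA-1 group on the log2 scale. Without isotype replicate 2, Eif5, Eif4a1 and Eif3g were the members higher at an unadjusted p under 0.05 and Eef2k the one lower. With a smooth GC and length trend taken out of each library, Eif4a1 and Eif6 were higher and Eef2k and Eif4e3 lower at that level. Eef2k was below 0 in both, and 0 members passed the adjusted threshold in either.

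Genes that feed into the pathway had few differences at the unadjusted level, and none passed the adjusted threshold. Among the eIF2 alpha kinases, their phosphatase subunits and targets, 2 of 8 tested genes were higher and 0 lower at an unadjusted p under 0.05, against 6.22% and 7.73% of all tested genes. Ppp1r15a, the inducible phosphatase subunit that reverses eIF2 alpha phosphorylation, measured 8.08, 8.03 and 12.2 FPKM with the isotype antibody and 16.3, 14.7 and 14.3 FPKM with DTA-1. Its DTA-1 libraries lay above all isotype libraries (log2 fold change 0.65 ± 0.17, limma unadjusted p = 0.00445, adjusted p = 0.157). Atf4, the transcription factor translated when eIF2 is phosphorylated, measured 261, 255 and 334 FPKM with the isotype antibody and 333, 373 and 352 FPKM with DTA-1, with overlap (log2 fold change 0.32 ± 0.13, limma adjusted p = 0.332). The kinase genes Eif2ak1 to Eif2ak4 had log2 fold changes of -0.18 to 0.12. Of the 8 genes, 2 were higher without overlap (Ppp1r15a and Eif2ak3), against 11.2% of all tested genes.

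In the list of mTORC1 and MNK inputs to eIF4F, 1 of 14 tested genes was higher and 0 lower at that level, against 6.22% and 7.73% of all tested genes. The median log2 fold change of the list was 0.15, against 0.014 over all tested genes. Of the 14, 12 lay above 0, against 52.6% of all tested genes. The list holds activators and restraints of this input alike, so these values give it no direction. The groups did not overlap for 3 (Tsc1, Tsc2 and Mknk1), all higher with DTA-1, against 11.2% of all tested genes. Tsc1, a restraint on mTORC1, measured 6.28, 6.998 and 6.89 FPKM with the isotype antibody and 8.17, 8.72 and 8.19 FPKM with DTA-1, without overlap (log2 fold change 0.28 ± 0.11, limma adjusted p = 0.326). Of the translation partners Eefsec, Eef1e1, Aimp1, Aimp2 and Vars, 1 was higher: Eef1e1, a scaffold protein of the synthetase complex, measured 71.9, 81.3 and 66.8 FPKM with the isotype antibody and 102, 87.8 and 97.5 FPKM with DTA-1, without overlap (log2 fold change 0.38 ± 0.12, limma adjusted p = 0.214). Of the remaining lists, 0 of 6 poly(A)-binding genes, 0 of 8 genes of termination and recycling and 0 of 8 mitochondrial translation factors had an unadjusted p under 0.05, against 14% of all tested genes in either direction. The most abundant of these were Pabpc1, the main cytoplasmic poly(A)-binding protein gene, at 1073, 1128 and 881 FPKM with the isotype antibody and 842, 889.5 and 907 FPKM with DTA-1, Etf1, the release factor gene, with a log2 fold change of 0.019 ± 0.15, and Tufm, the mitochondrial elongation factor gene, with 0.26 ± 0.14. Pabpc1 overlapped between the groups, with a log2 fold change of -0.22 ± 0.12.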

How the data were processed

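The authors deposited a table of gene symbols and values for each library. These deposited values were read as FPKM: they are not whole and step at low levels by an amount that depends on the gene, while neither labels nor headers name a unit. TopHat, a read aligner, and the build mm10 are named in the submitters' processing notes without a version; how values were computed, the annotation and the use of strand were not found there, although the kit is directional per the labels. Groups and replicate numbers came from the titles. Some treatment tags (IgG3b, IgG4b, DTA-2, DTA-3) conflict with the titles and were set aside.

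The filter required 1 FPKM in 3 or more libraries. Values as log2(FPKM + 1) were fitted by limma 3.58.1 (R 4.3.3; empirical Bayes with trend and robust, 2-sided, Benjamini-Hochberg over every gene tested, threshold 0.05), after the code was tested on simulated data. Depth was estimated from the commonest product of low value and transcript length. Lengths and GC content are those of the longest coding transcript of each symbol in GENCODE M21 (GRCm38). Trends used mgcv 1.9.3, figures matplotlib 3.10.9 in Python 3.11.15. Alternatives covered pseudocounts, filters, scaling, blocks, weights, moderation, dropping each library and GC trends (the last chosen after seeing the data).

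Members, lists and tests were chosen with earlier results of these data known. Values in every library are given for the most abundant member of each role, members with an unadjusted p under 0.05, the 2 with the smallest p in each direction, and a fixed list of core factors. Eif2a, Eif2d, Eif2s2, Eif4enif1, Eif5, Eif1ad, Eif3g, Eif3a, Eif4e1b, Eif3j1, Eif3j2, Eif5b, Eef1b2, Eif1a and Eif1ax were named in addition, after their values were seen. Of the related lists, genes with an unadjusted p under 0.05 or the most abundant were named, and Dhps and Dohh in addition.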

Additional observations from a re-analysis of the deposited data

How the results depend on the processing

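No translation factor passed an adjusted p of 0.05 by limma under any of the 18 alternatives run, including each library left out in turn. The count of members higher at an unadjusted p under 0.05 was 1. It was 2 with no filter on low values and with the GC and length trend removed, 0 with equal totals, with the replicate block and with the library number block, and 3 with library quality weights. The count lower at that level was 2, and 1 with the library number block. Replicate 1 of either group adds nothing to the estimate with that block. Members without overlap numbered 7 higher and 2 lower. They numbered 5 higher and 4 lower with equal totals (8.82% and 12.2% of all tested genes), 8 and 4 with median-of-ratios scaling (11.2% and 10.5%), and 9 and 4 with the trend removed (14% and 11.9%). The median log2 fold change of the members was 0.044, and 0.011 with equal totals, where 29 of 55 members lay above 0 instead of 35. With each library left out in turn, 0 to 3 members were higher and 1 to 2 lower at the unadjusted level, 7 to 19 were higher and 2 to 5 lower without overlap, the median ran from 0.022 to 0.066, and 1 to 4 paralog pairs did not overlap. The cause of these shifts was not tested. Of 378 values recomputed for 21 single members, 368 moved by less than 1 SE, 10 moved further, 31 changed sign, and none crossed the adjusted threshold. Titles give both groups the same replicate numbers, and the deviations of same-numbered libraries correlated at 0.39, -0.10 and -0.13. The highest correlation, 0.49, was between isotype replicate 2 and DTA-1 replicate 3. With so few libraries per group these correlations cannot show whether the numbers pair the samples, and a pairing remains possible. Over all genes 4 passed, and 185 with the replicate block, 136 with the library number block, 475 with quality weights, 7 with quantile normalization, 2 with no filter or with the trend removed and 1 to 3 with a library left out; 0 of these were members. The smallest adjusted p of a member under these fits was 0.051, for Eif4e3 with quality weights.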
